A study of Mus musculus with 14 samples.

Results

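Whether hematopoietic stem cells (HSCs) answer 1 day of interleukin-1β (IL-1β) and 20 days of it with the same genes was examined in the 14 of 14 libraries of one RNA-seq count table. The quantity described is a difference of differences: the IL-1β effect after 20 days (IL-1β minus PBS) minus the IL-1β effect after 1 day (IL-1β minus PBS), estimated for each gene in one fit. The mice were C57BL/6 animals injected intraperitoneally each day with 0.5 µg of IL-1β per mouse or with PBS. Bone marrow HSCs were sorted as LSK/Flk2-/CD48-/CD150+ cells (LSK: lineage negative, Sca-1 positive, c-Kit positive), and each library was a biological replicate pooled from 3 to 5 mice. After 1 day there were 3 libraries from PBS mice and 3 from IL-1β mice, and after 20 days 4 of each. The labels name no mutation, transgene or age for any group.

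The titles of the libraries fall into 4 naming sets. At 1 day, replicates 1 and 2 of both treatments carry the tag E060216 and replicate 3 carries the tag 10k. At 20 days, replicates 1 and 2 of both treatments carry the tag E061316, and replicates 3 and 4 carry no tag. Each set holds as many PBS as IL-1β libraries, so a term for the set was put into the fit. No set spans both durations, so duration and naming set cannot be told apart, and the labels do not say what the tags stand for.

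IL-1β is an inflammatory cytokine that binds the receptor chain IL1R1 together with IL1RAP and signals through MyD88 and IRAK kinases to NF-κB and MAP kinases. Acute exposure drives normally quiescent HSCs to divide and to produce myeloid cells, a process in which the ETS transcription factor PU.1 (gene Spi1) takes part. Under repeated exposure, negative regulators of the pathway, such as IRAK3 and TNFAIP3, and changes in cell identity can alter the answer to the same ligand. A gene can therefore respond early and lose the response, respond at both times, respond late, or turn its direction.

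Library totals lay between 21654896 and 29441947 counts, and 3 counts, the limit below which a gene was taken as not detected, corresponded to 0.102 to 0.139 CPM (counts scaled to a common library total). Levels are given in CPM, for single genes after scaling by TMM factors, in the order of the replicates, and are compared between libraries, not between genes, because they are not divided by gene length. The 8 stem cell markers, among them Kit, Ly6a, Slamf1, Procr, Hlf, Mecom and Fgd5, were all detected and summed to 1814 to 3638 CPM in every library. One library stood apart: in IL-1β 20-day replicate 3, the 13 neutrophil markers summed to 1913 CPM, against 2.56 to 9.69 CPM in the other 13 libraries, and the mast cell and basophil markers to 25.9 CPM, against at most 9.21 CPM. Counts of called differences and of the response classes were therefore also made without this library. Counts of list members raised or lowered at a single duration are given only with it. Erythroid markers summed to 97.3 to 134.0 CPM in the IL-1β 20-day libraries, nearly all of it Hbb-bt, and to 12.1 to 38.8 CPM in all others. Alas2 was near 0. Without TMM scaling, Hbb-bs was lower with IL-1β at 20 days, at 0.778 to 0.911 CPM against 1.49 to 4.81 CPM with PBS. Hba-a1 (0.0707 to 0.312 against 0.269 to 2.67 CPM) and Hba-a2 (0 to 0.163 against 0.134 to 2.19 CPM) overlapped there at low levels. The T and NK cell list (90.8 to 109 CPM against 44.1 to 76.4 CPM elsewhere, mostly Nkg7, with Cd3d and Cd3g near 0) and the endothelial list (128 to 156 CPM against 49.5 to 94.2 CPM, mostly Pecam1, with Cdh5 near 0) were also highest in the IL-1β 20-day libraries. In these bulk samples fewer cells of a type and less RNA per cell cannot be told apart, and the part of other cell types in the results was not tested.

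The IL-1β effect differed between 20 days and 1 day for 331 of the 15466 genes tested (2.14%; edgeR quasi-likelihood F-test, Benjamini-Hochberg adjusted p under 0.05, here "called"). For 178 genes (1.15%) the effect at 20 days was the higher one and for 153 (0.989%) the lower one, and the difference reached 2-fold for 69 and 27 of them. In 262 of the 331 the point estimates at the 2 durations had opposite signs, which picking genes by their difference favors by itself. Among the 13801 genes without a call of any kind, 6835 had opposite signs. IL-1β alone changed 672 genes (4.35%) at 1 day, 389 up and 283 down, and 1154 genes (7.46%) at 20 days, 609 up and 545 down. Both durations called 202 genes, 186 of them in the same direction. In the plot of the 20-day effect against the 1-day effect, the 262 genes with opposite signs lie in the upper left and lower right quadrants.

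**Figure D1:**
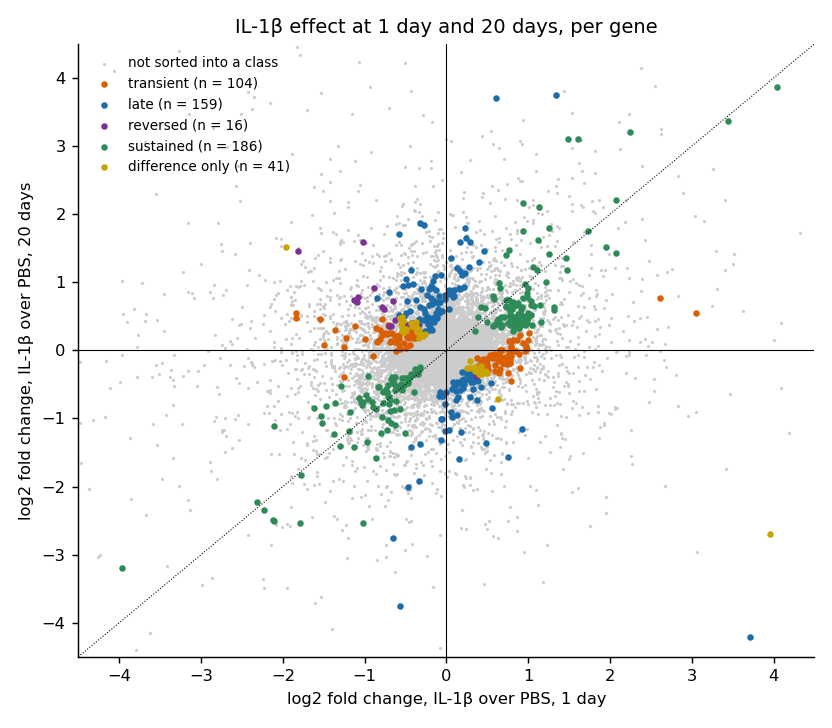
The log2 fold change of IL-1β over PBS at 20 days (vertical axis) is plotted against that at 1 day (horizontal axis) for the genes tested, of which 80 lie outside the axes (3 of them sorted into a class). Colors mark the response classes, and the genes with a called difference sit off the line of equal effects.

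Each gene was sorted by its 3 tests. A response called at 1 day, not at 20 days, with a called difference was transient, which held for 104 genes (0.672%; 56 raised and 48 lowered at 1 day). A response called at 20 days, not at 1 day, with a called difference was late, which held for 159 genes (1.03%; 89 raised, 70 lowered). Sustained responses, called at both durations in the same direction, were found for 186 genes (1.20%; 108 raised, 78 lowered), and 11 of them also had a called difference, 4 with the larger effect at 20 days and 7 with the smaller. Reversed responses, called at both with opposite signs, were found for 16 genes (0.103%): 15 were lowered at 1 day and raised at 20 days, and Gart alone did the opposite. A called difference without a call at either duration was found for 41 genes (0.265%). A further 366 genes (2.37%) were called at 1 day alone and 793 (5.13%) at 20 days alone without a called difference, so they could be placed neither as transient or late nor as sustained. Without IL-1β 20-day replicate 3, the library with neutrophil markers, 48 genes were transient, 58 late, 135 sustained and 8 reversed. In that fit 801 genes were called at 20 days.

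These counts moved strongly with the model and with single libraries. The difference was called for 23 genes without the term for the naming set and for 1182 by DESeq2, and for none without the E060216 libraries (0 by edgeR, 1378 at unadjusted p under 0.05, with only the 2 libraries of the 10k set left at 1 day). It was called for 80 genes without the untagged libraries and for 1433 without the E061316 libraries. Leaving out 1 library gave 34 genes without IL-1β 1-day replicate 1, 38 without PBS 1-day replicate 2, 40 without IL-1β 1-day replicate 2, 78 without PBS 1-day replicate 1, 95 without IL-1β 20-day replicate 4, 122 without IL-1β 20-day replicate 1, 127 without IL-1β 20-day replicate 3, 134 without PBS 20-day replicate 3 and 604 without IL-1β 20-day replicate 2. Libraries were always left out 1 at a time, so where several are listed after "without" each was left out in turn. All 331 genes kept the sign of their difference in every one of these fits that tested them. These fits reuse all or most of the libraries by which the genes were picked, so a kept sign is no independent evidence. The call was kept by 26 genes in all 14 fits that left out 1 library. The bars of called genes by setting show how the count depends on which libraries are in the fit.

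**Figure D2:**
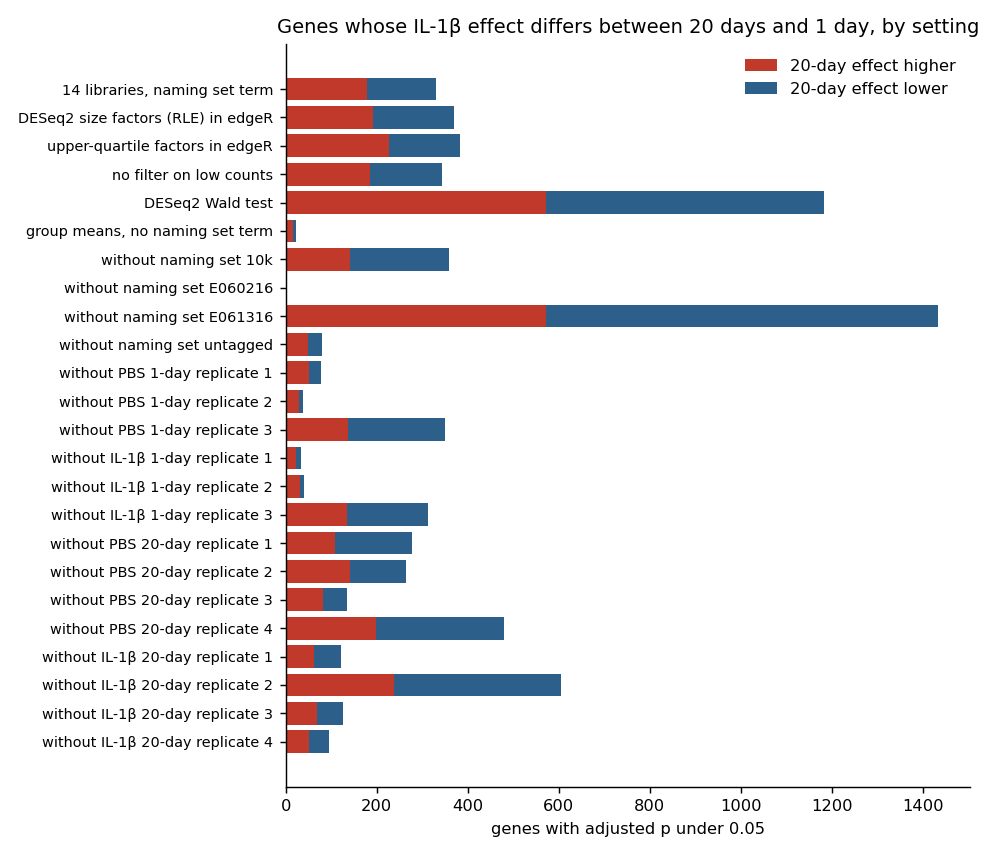
Bars count the genes with an adjusted p under 0.05 for the difference, split by whether the 20-day effect was higher or lower, with 1 bar per setting. The 14-library fit calls 331 genes, and the settings run from 0 without E060216 to 1433 without E061316.

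The 23 genes called without the naming set term were also all called by the 14-library fit and by DESeq2, and they are the genes whose call depended least on these 3 models. A fit with replicate numbers as a block within naming sets called 14 of them, and 23 genes in all. H2-Ob, Spic, Ccl9, Il4, Tcn2, Themis2 and Rnase6 were lowered at 1 day and raised at 20 days, Pdzk1ip1, Tcp11l2 and Ctsf were lowered at 1 day only, and Mybl2 and Tmem109 were raised at 1 day only. BC035044, Itgb2, Tnfaip8l2, Pafah2 and Gsn were raised at 20 days only, and Socs2, Unc5a, Ccnd1 and Sox18 were lowered at 20 days only. A change "only" or "alone" at a single duration means, here and below, that the effect at the other duration was not called. Pcp4l1 rose at both durations and Chst2 fell at both, each by more at 20 days. Of the 23, 16 kept the call of the difference in all 14 fits without 1 library. The calls at the single durations held less often for most of the reversed genes: both were kept in all 14 fits for H2-Ob and Spic, but the 1-day call was kept in 2 fits for Ccl9, 4 for Rnase6, 8 for Themis2 and 12 each for Il4 and Tcn2, and the 20-day call in 1 fit for Tcn2, 9 for Il4 and 12 for Themis2.

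**Figure D3:**
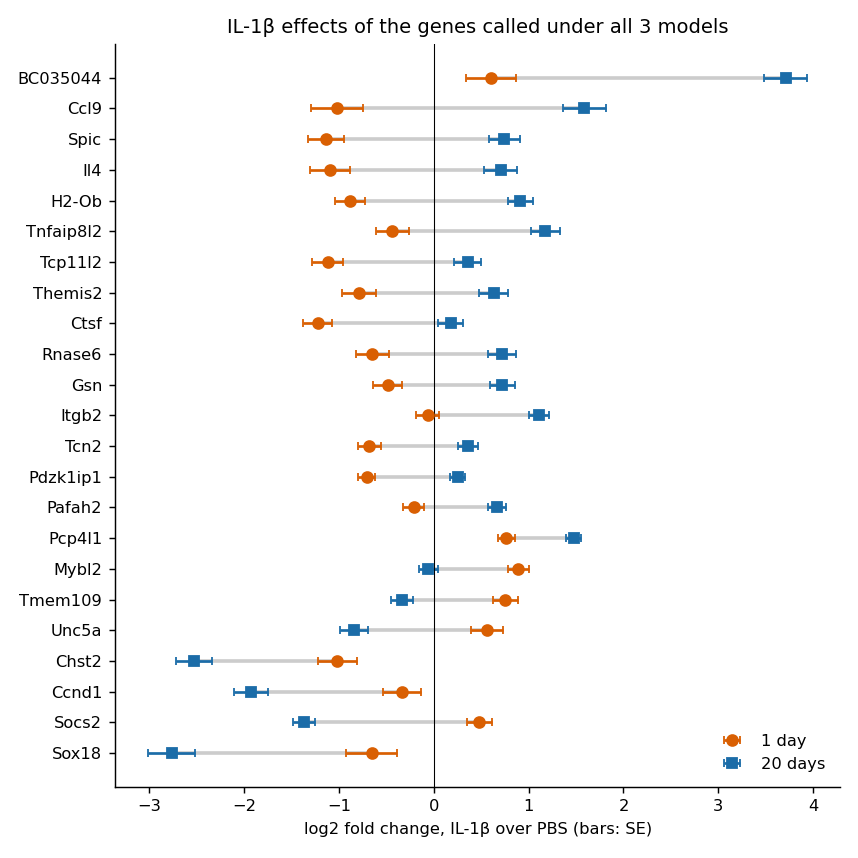
Points give the log2 fold change of IL-1β over PBS at 1 day (circles) and at 20 days (squares) with standard errors for the genes called by edgeR with and without the naming set term and by DESeq2. In 18 of the 23 the points lie on opposite sides of 0, which picking genes by their difference favors by itself.

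H2-Ob encodes the beta chain of H2-O, which restrains peptide loading onto MHC class II (chromosome 17, 34238903 to 34254414, plus strand, GRCm38). At 1 day it stood at 26.6, 31.6 and 28.4 CPM in the PBS libraries and at 16.4, 13.7 and 17 CPM in the IL-1β libraries. At 20 days the PBS libraries held 17.4, 22.2, 26.4 and 22 CPM and the IL-1β libraries 33, 35.6, 43.3 and 55.7 CPM. IL-1β libraries were thus all below PBS at 1 day and all above PBS at 20 days, with no overlap at either time. The log2 effect was -0.88 ± 0.15 (SE) at 1 day and 0.91 ± 0.13 at 20 days, a 3.47-fold difference (adjusted p = 0.00173), and the highest adjusted p with 1 library left out was 0.0120.

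Spic, an ETS transcription factor best known from iron-recycling macrophages (chromosome 10, 88674772 to 88685015, minus strand), followed the same course. It measured 7.8, 7.01 and 6.68 CPM with PBS and 3.29, 3.3 and 3.18 CPM with IL-1β at 1 day. After 20 days it measured 5.91, 5.52, 8.22 and 7.03 CPM with PBS and 9.22, 12.2, 11.1 and 11.9 CPM with IL-1β. Again the groups did not overlap at either duration, and the order was turned around. The effects were -1.13 ± 0.19 and 0.74 ± 0.16 on the log2 scale, and their difference of 1.88 ± 0.25 had an adjusted p of 0.00553.

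Ccl9, a CC chemokine that attracts myeloid cells (chromosome 11, 83572919 to 83578636, minus strand), had the largest difference among the reversed genes named here. Its 1-day levels were 3.1, 5.91 and 3.37 CPM with PBS and 1.57, 2.47 and 2.01 CPM with IL-1β. Its 20-day levels were 3.35, 4.0, 7.81 and 6.12 CPM with PBS and 12.1, 13.4, 19.9 and 16.7 CPM with IL-1β. Every IL-1β library at 20 days was above every other library of the study. The difference was 2.61 ± 0.36 (adjusted p = 0.00553), and the call for a fall at 1 day lay at the edge, with an adjusted p of 0.0497.

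Il4, a type 2 cytokine gene (chromosome 11, 53602982 to 53618669, minus strand), was low throughout, at 6.83 to 7.32 CPM with PBS and 2.76 to 4.24 CPM with IL-1β at 1 day. At 20 days it stood at 6.59 to 9.66 CPM with PBS and at 12.8 to 15.5 CPM with IL-1β. Its difference was 1.79 ± 0.27 (adjusted p = 0.00925) with no overlap between groups at either time. Rec8, which encodes a meiotic cohesin subunit, was lower without overlap at 1 day (20.7 to 23.5 CPM with IL-1β, 32.5 to 39.1 CPM with PBS). At 20 days its groups overlapped (41.6 to 82.1 and 37.1 to 58.3 CPM), and its difference of 1.06 ± 0.15 (adjusted p = 0.00596) was not called without the set term. Its 20-day call was kept in 2 of the 14 fits without 1 library. Tcn2, the carrier of vitamin B12 in blood, Themis2, an adaptor of immune receptor signalling, and Rnase6, an antimicrobial ribonuclease, were named after their values were seen. Their differences were 1.04 ± 0.16, 1.42 ± 0.23 and 1.37 ± 0.23, all without overlap of groups, and the call for Rnase6 ended without IL-1β 1-day replicate 1.

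Gart, a trifunctional enzyme of purine synthesis (chromosome 16, 91621186 to 91646952, minus strand), was the only reversed gene in the opposite order. It measured 239, 270.5 and 268 CPM with PBS and 345, 312 and 346 CPM with IL-1β at 1 day. At 20 days the PBS libraries held 250.4, 256, 211 and 222 CPM and the IL-1β libraries 176, 224, 162 and 162 CPM. The groups were separate at 1 day and overlapped slightly at 20 days. Its difference was -0.75 ± 0.13 (adjusted p = 0.0151), and the call ended without IL-1β 1-day replicate 1. The 1-day call (adjusted p = 0.0461), on which its place among the reversed genes rests, was kept in 3 of the 14 fits without 1 library.

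Genes lowered only by the short exposure included inflammatory mediators and HSC genes. Ccl4, a CC chemokine and NF-κB target (chromosome 11, 83662584 to 83664683, plus strand), stood at 15.1, 17.4 and 25.2 CPM with PBS and 6.43, 4.86 and 12.2 CPM with IL-1β at 1 day. At 20 days it stood at 15.8, 18.7, 17.9 and 23.4 CPM with PBS and 15.9, 17.5, 31.2 and 32.6 CPM with IL-1β. Only the 1-day groups were separate, and the difference of effects was 1.65 ± 0.26 (adjusted p = 0.0107). Ebi3, a subunit shared by the cytokines IL-27 and IL-35, went from 36 to 42.6 CPM with PBS to 18.5 to 26.1 CPM with IL-1β at 1 day. After 20 days its groups overlapped at 34.4 to 53.6 and 44.9 to 62.6 CPM, which gave a difference of 1.18 ± 0.16 (adjusted p = 0.00553).

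Traf1, an adaptor of TNF receptors, was lowered at 1 day (-0.79 ± 0.16) and had an effect of 0.46 ± 0.14 at 20 days that was not called, with a difference of 1.25 ± 0.21 (adjusted p = 0.0137). That call ended without IL-1β 1-day replicates 1 and 2. Irak3, the inhibitor of IL-1 receptor signalling, was raised only at 20 days, to 163 to 180.3 CPM from 102 to 146 CPM, with a difference of 0.72 ± 0.14 (adjusted p = 0.0227). It was named after its values were seen, and its call ended without PBS 1-day replicate 2, IL-1β 1-day replicates 1 and 2 and IL-1β 20-day replicate 4. Bcl3, a nuclear regulator of NF-κB, also named after its values were seen, moved the other way: it was raised at 1 day, from 15.6 to 21.9 to 29.9 to 43.8 CPM, and overlapped at 20 days, for a difference of -1.17 ± 0.22 (adjusted p = 0.0202). The call for Bcl3 ended without PBS 1-day replicate 2 and IL-1β 1-day replicates 1 and 2.

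Of the 27 tested members of a list of NF-κB and IL-1 response genes, 4 had a called difference upward (Ccl4, Ebi3, Traf1, Irak3) and 1 downward (Bcl3), beside 1.15% and 0.989% of all genes. The median effect of the list was -0.25 at 1 day, with 1 member raised and 6 lowered, and 0.14 at 20 days, with 3 raised and 2 lowered. Over all genes the medians were -0.01 and -0.000313, and the shares called were 2.52% up and 1.83% down at 1 day and 3.94% up and 3.52% down at 20 days. The same number of members, 4 upward and 1 downward, was called without IL-1β 20-day replicate 3, and the number called was 2 without IL-1β 1-day replicates 1 and 2 and 3 without PBS 1-day replicate 2.

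Pdzk1ip1, a small membrane protein gene that is highly expressed in HSCs (chromosome 4, 115088708 to 115093899, plus strand), was lowered at 1 day only. Its 1-day levels were 219, 192 and 227 CPM with PBS and 119, 131 and 141 CPM with IL-1β. Its 20-day levels were 203, 203, 184 and 218 CPM with PBS and 232, 236, 238 and 258 CPM with IL-1β. The IL-1β libraries were clearly low at 1 day and slightly above PBS, without overlap, at 20 days, where the effect of 0.25 ± 0.08 had an adjusted p of 0.0670. The difference was 0.96 ± 0.12 (adjusted p = 0.00448).

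Ctsf, a lysosomal cysteine protease (chromosome 19, 4855130 to 4860918, plus strand), measured 82.4, 80.2 and 68.2 CPM with PBS and 32.1, 35.9 and 30.5 CPM with IL-1β at 1 day. At 20 days it measured 83.8, 84.1, 91.4 and 80.8 CPM with PBS and 78.2, 71.1, 106 and 141 CPM with IL-1β. At 1 day all 3 IL-1β libraries were at 35.9 CPM or less and all 3 PBS libraries at 68.2 CPM or more, and at 20 days the IL-1β libraries lay on both sides of PBS. The difference was 1.40 ± 0.20 (adjusted p = 0.00707). Apoe, a lipid carrier, and Tcp11l2 followed with differences of 0.92 ± 0.13 and 1.47 ± 0.21 (adjusted p = 0.00553 and 0.00661). At 1 day Apoe stood at 697 to 1089 CPM with PBS and at 469.5 to 622 CPM with IL-1β, and Tcp11l2 at 112 to 169.9 and 53.4 to 75 CPM, without overlap.

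Gata2, a transcription factor required by HSCs, was lowered at 1 day, from 485 to 539 to 376 to 410.3 CPM, and at 20 days measured 507 to 624 CPM with IL-1β against 471 to 490.0 CPM with PBS. Its difference was 0.59 ± 0.11 (adjusted p = 0.0239). Slamf1, which encodes the sorting marker CD150, had an uncalled effect at 1 day (-0.01 ± 0.14) and was raised at 20 days, to 89.5 to 116 CPM from 39.4 to 68.9 CPM, with a difference of 0.82 ± 0.18 (adjusted p = 0.0383). In a list of 36 stem cell identity genes, Pdzk1ip1, Gata2 and Slamf1 were the 3 with a called difference, all upward, beside 1.15% of all genes. The median effect of that list was -0.22 at 1 day and 0.02 at 20 days. The call for Gata2 ended without any of the 4 E060216 libraries or IL-1β 20-day replicate 4, and that for Slamf1 without any of the 6 libraries at 1 day or IL-1β 20-day replicate 1, 3 or 4. The number called in the list was 1 without PBS 1-day replicates 1 and 2, IL-1β 1-day replicates 1 and 2 and IL-1β 20-day replicate 4.

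Genes of DNA replication rose at 1 day, and at 20 days their median effect was near 0. Of 41 genes in the list, 24 rose at 1 day and 1 at 20 days, beside 2.52% and 3.94% of all genes. A called difference was found for 10, beside 0.989% of all genes, all downward and all transient: Mcm5, Mcm7, Cdc6, Cdt1, Pold1, Pole2, Rrm1, Tyms, Tk1 and Lig1. The median effect was 0.59 at 1 day and -0.05 at 20 days, and the difference was below 0 in 41 of 41. Over all genes the median difference was 0.02. By naming set the median effect was 0.37 in 10k, 0.72 in E060216, 0.16 in E061316 and -0.29 in the untagged set, so the 2 sets of 20-day libraries lay on either side of 0. With 1 library left out, the number called was 0 without PBS 1-day replicates 1 and 2 and IL-1β 1-day replicates 1 and 2, 1 without PBS 20-day replicate 3 and IL-1β 20-day replicates 3 and 4, 5 without IL-1β 20-day replicate 1, 16 without PBS 1-day replicate 3, IL-1β 1-day replicate 3 and PBS 20-day replicate 4, 19 without PBS 20-day replicate 1 and 27 without IL-1β 20-day replicate 2. It was 0 by edgeR without the naming set term and 34 by DESeq2.

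Mybl2, a transcription factor of the complex that drives cell cycle genes (chromosome 2, 163054687 to 163084688, plus strand), rose at 1 day only and kept its called difference in all 14 fits without 1 library. It measured 40.3, 42.4 and 52.5 CPM with PBS and 89.2, 80.6 and 79.4 CPM with IL-1β at 1 day. All 8 libraries at 20 days lay between 41.2 and 49.6 CPM, with PBS at 49.3, 45.8, 46.2 and 44 CPM and IL-1β at 46, 49.6, 41.2 and 41.9 CPM. The 3 IL-1β libraries at 1 day were the highest of the 14. The effects were 0.89 ± 0.11 and -0.06 ± 0.10, with a difference of -0.95 ± 0.15 (adjusted p = 0.00925). Tmem109, a nuclear and endoplasmic reticulum membrane protein gene, was the other transient rise kept in all 14 fits without 1 library (0.75 ± 0.13 at 1 day and -0.33 ± 0.12 at 20 days, difference -1.09 ± 0.18, adjusted p = 0.0119).

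Pold1, the catalytic subunit of DNA polymerase delta (chromosome 7, 44532746 to 44548849, minus strand), rose from 276 to 353 to 416 to 497 CPM at 1 day. At 20 days it measured 297, 328, 244 and 251 CPM with IL-1β, on both sides of the 272 to 304 CPM with PBS, and the difference was -0.62 ± 0.12 (adjusted p = 0.0242). Tk1, the thymidine salvage kinase, rose from 98 to 132 to 197 to 231 CPM at 1 day and measured 150.3, 145, 102 and 95.7 CPM with IL-1β at 20 days against 107 to 128 CPM with PBS. In both genes the untagged IL-1β libraries at 20 days (replicates 3 and 4) were below the PBS libraries of their set and the E061316 libraries (replicates 1 and 2) above theirs on average. Tk1, Lig1 (DNA ligase 1) and Mcm5 (a subunit of the replicative helicase, named after its values were seen) had differences of -0.91 ± 0.18, -0.79 ± 0.17 and -0.87 ± 0.19, with adjusted p of 0.0282, 0.0324 and 0.0334. The call for Pold1 ended without any of the 4 E060216 libraries. Those for Tk1, Lig1 and Mcm5 ended without any of the same 4, PBS 20-day replicate 3 or IL-1β 20-day replicate 3 or 4.

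Mitosis genes were raised at both durations. All 32 members of the list rose at 1 day (median 0.86) and 22 still rose at 20 days (median 0.43), beside 2.52% and 3.94% of all genes. Thus 22 were sustained, 2 transient and 8 unresolved. The difference was below 0 in 32 of 32 with a median of -0.45, beside a median of 0.02 over all genes. It was called for Cdk1 and Cdc20, beside 0.989% of all genes called downward (0 genes by edgeR without the naming set term, 11 by DESeq2). Cdc20, the activator of the anaphase-promoting complex (chromosome 4, 118432901 to 118437352, minus strand), measured 171, 154 and 224 CPM with PBS and 308, 322 and 323 CPM with IL-1β at 1 day, and overlapped at 20 days (139 to 169.6 and 160.2 to 181 CPM). Its difference was -0.65 ± 0.14 and that of Cdk1, the mitotic kinase, -0.74 ± 0.18 (adjusted p = 0.0368 and 0.0461). Cenpa, the centromeric histone H3 variant, was raised at both times, by 0.80 ± 0.09 and 0.68 ± 0.07, with no called difference (-0.12 ± 0.11, adjusted p = 0.639). The calls for Cdc20 and Cdk1 ended without any of the 4 E060216 libraries, PBS 20-day replicate 2, or IL-1β 20-day replicate 1, 3 or 4, and that for Cdk1 also without PBS 20-day replicate 3. The number called in the list was 0 without PBS 1-day replicates 1 and 2, IL-1β 1-day replicates 1 and 2, PBS 20-day replicate 2 and IL-1β 20-day replicates 1, 3 and 4, 1 without PBS 20-day replicate 3, 5 without PBS 20-day replicate 1, 6 without IL-1β 1-day replicate 3, 7 without IL-1β 20-day replicate 2 and 8 without PBS 1-day replicate 3 and PBS 20-day replicate 4.

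Letters of cell cycle motifs were counted in the promoters of these groups, in RefSeq windows of GRCm38.p6 that run from 250 bases before to 50 bases after each gene's start. Motifs were chosen from textbook knowledge with the results known and were searched on both strands. There were 32851 windows for 27025 genes, and a gene was counted if any of its windows held the letters. Only 10632 of these genes were tested, so the shares of all genes with a window include genes not expressed here. Those described were picked after the shares were seen, and PU.1 (GAGGAAGT), ATF4 (TGATGNAA), NF-κB and ISRE motifs were searched in the same way. The motifs described are the CHR element (TTTGAA) and the CCAAT box (CCAAT), which belong to late cell cycle promoters, the E2F site (GGCGGGAA) of S phase promoters and the E-box (CACGTG) bound by Myc. None of these 4 contains another. Of the 29 mitosis genes with a window, 22 (75.9%) held CHR, 23 (79.3%) held CCAAT and 20 held both, beside 20.2%, 41.1% and 8.97% of the 27025 genes with a window, and none held the E2F letters. Of the 33 DNA replication genes with a window, 6 (18.2%) held E2F letters beside 2.52% of all genes, 5 (15.2%) held CHR, 21 (63.6%) held CCAAT and 7 (21.2%) held the E-box. Of 31 genes of the ribosome biogenesis list described next, 7 (22.6%) held the E-box beside 8.09% of all genes, 8 (25.8%) held CCAAT, and 4 (12.9%) held the PU.1 letters beside 3.69% of all genes. The E-box share was thus about the same in the replication and ribosome lists. A match describes the letters in the window and is neither a shown binding site nor a cause of the response.

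Shown here, 5′ to 3′ on the strand of the gene and from 250 bases before to 30 after its start, are promoters picked because they hold a match: Cdc20 (transient) and Cenpa (sustained) for CHR and CCAAT, Rrm1 (the large subunit of ribonucleotide reductase, transient) for E2F, and Nop2 (a ribosomal RNA methyltransferase, late and lower) for the E-box. Capitals mark the matches named, on either strand. The windows are chr4:118437314-118437593 on the minus strand, chr5:30666636-30666915 on the plus strand, chr7:102441445-102441724 on the plus strand and chr6:125131633-125131912 on the plus strand.
Cdc20: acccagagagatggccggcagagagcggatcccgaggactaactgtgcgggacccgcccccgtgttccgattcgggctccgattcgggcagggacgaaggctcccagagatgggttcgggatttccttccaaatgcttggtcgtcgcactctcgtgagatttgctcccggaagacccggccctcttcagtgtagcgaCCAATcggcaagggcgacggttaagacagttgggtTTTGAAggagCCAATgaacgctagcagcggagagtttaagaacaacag
Cenpa: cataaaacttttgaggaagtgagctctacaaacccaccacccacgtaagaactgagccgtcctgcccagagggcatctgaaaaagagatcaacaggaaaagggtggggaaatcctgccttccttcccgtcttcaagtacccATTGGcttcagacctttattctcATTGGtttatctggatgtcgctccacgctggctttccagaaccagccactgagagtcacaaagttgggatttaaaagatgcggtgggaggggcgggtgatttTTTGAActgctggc
Rrm1: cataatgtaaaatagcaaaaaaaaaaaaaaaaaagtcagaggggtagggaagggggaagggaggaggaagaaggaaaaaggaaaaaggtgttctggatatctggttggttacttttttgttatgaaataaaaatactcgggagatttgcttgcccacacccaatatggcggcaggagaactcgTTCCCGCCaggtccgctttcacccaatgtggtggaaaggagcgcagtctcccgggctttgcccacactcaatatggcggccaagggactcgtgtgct
Nop2: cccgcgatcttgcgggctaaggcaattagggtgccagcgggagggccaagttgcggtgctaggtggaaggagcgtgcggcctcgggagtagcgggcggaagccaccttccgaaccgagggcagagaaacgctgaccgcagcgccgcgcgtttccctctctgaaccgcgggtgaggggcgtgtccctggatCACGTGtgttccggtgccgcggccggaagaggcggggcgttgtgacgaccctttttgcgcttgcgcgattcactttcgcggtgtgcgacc
In Cdc20 the CHR lies 18 bases before the start between CCAAT boxes at -53 and -8. In Cenpa the CHR lies at 17 bases after the start and the CCAAT boxes, read on the other strand, at -109 and -86. The E2F letters of Rrm1 lie at -67 on the other strand, and the E-box of Nop2 at -60. Itgb2, Socs2 and Ccnd1 are named without a sequence.

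Genes of ribosome biogenesis fell at 20 days. Of 38 tested members of a list of Myc family and ribosome biogenesis genes, none rose and 1 fell at 1 day, while 28 fell at 20 days, beside 3.52% of all genes. The median effect was 0.06 at 1 day and -0.46 at 20 days. The difference was below 0 in 38 of 38, beside a median difference of 0.02 over all genes. It was called for 10, beside 0.989% of all genes: Gnl3, Nop2, Nolc1, Dkc1, Ppan, Polr1a, Rrp12, Rrp1b and Grwd1, all late, and Mycn, sustained. By naming set the median effect was -0.06 in 10k, 0.09 in E060216, -0.37 in E061316 and -0.57 in the untagged set. With 1 library left out the called number was 0 without PBS 1-day replicate 2, IL-1β 1-day replicates 1 and 2 and IL-1β 20-day replicate 1, 1 without PBS 1-day replicate 1, 2 without IL-1β 20-day replicate 4, 3 without PBS 20-day replicate 3, 4 without IL-1β 20-day replicate 3 and 20 without IL-1β 20-day replicate 2. It was 0 by edgeR without the naming set term and 26 by DESeq2.

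Polr1a, the largest subunit of RNA polymerase I, measured 98.7, 106 and 84.6 CPM with PBS and 116, 115 and 84.2 CPM with IL-1β at 1 day. At 20 days PBS stood at 118, 103, 100.4 and 84.6 CPM and IL-1β at 62.2, 67.1, 67.3 and 71.8 CPM. The groups overlapped at 1 day and were separate at 20 days, with a difference of -0.70 ± 0.15 (adjusted p = 0.0327). Grwd1, a ribosome assembly factor, had a difference of -0.84 ± 0.17 (adjusted p = 0.0294). Mycn, a Myc family transcription factor (chromosome 12, 12936093 to 12941914, minus strand), was already lower at 1 day (162 to 237 CPM against 199.8 to 366 CPM, with overlap) and lower still at 20 days (110.3 to 199 CPM against 291 to 410.4 CPM, without overlap). Its effects were -0.50 ± 0.11 and -1.22 ± 0.09, and the difference was -0.72 ± 0.14 (adjusted p = 0.0275). Myc itself was lowered at 20 days (-0.42 ± 0.08, adjusted p = 0.00414) and had a 1-day effect of -0.32 ± 0.09 (adjusted p = 0.0581), with no called difference (-0.10 ± 0.12). The calls for Polr1a, Grwd1 and Mycn ended without any of the 4 E060216 libraries or IL-1β 20-day replicate 1, that for Polr1a also without PBS 20-day replicate 3, that for Grwd1 without IL-1β 20-day replicate 4 and that for Mycn without either 10k library.

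In the heat shock and unfolded protein list, 3 of 28 genes had a called difference, all downward, beside 0.989% of all genes. Hspd1 and Hsph1 were late, and Hsp90aa1, a cytosolic HSP90, was called for the difference alone. The number called was 0 without PBS 1-day replicate 2 and IL-1β 1-day replicates 1 and 2 and 1 without PBS 1-day replicate 1. Hspd1, the mitochondrial chaperonin, measured 235 to 327 CPM with IL-1β and 392.4 to 439 CPM with PBS at 20 days, with a difference of -0.75 ± 0.14 (adjusted p = 0.0228). Hsph1, a cytosolic co-chaperone, had effects of 0.38 ± 0.12 at 1 day, which was not called, and -0.46 ± 0.11 at 20 days. Pkm, the pyruvate kinase of proliferating cells, was the 1 of 20 glycolysis and hypoxia genes with a called difference, beside 0.989% of all genes called downward. It was raised at 1 day, and its difference was -0.62 ± 0.13 (adjusted p = 0.0351). Slc7a5, the large neutral amino acid transporter, and Shmt2, the mitochondrial serine hydroxymethyltransferase, both named after their values were seen, were lowered at 20 days only, with differences of -0.89 ± 0.15 and -0.78 ± 0.17. The call for Hspd1 ended without PBS 1-day replicate 2 and IL-1β 1-day replicates 1 and 2, that for Hsph1 without any of the 4 E060216 libraries and that for Slc7a5 without PBS 1-day replicate 2 and IL-1β 1-day replicate 2. Those for Hsp90aa1, Pkm and Shmt2 ended without any of the 4 E060216 libraries, PBS 20-day replicate 3 or IL-1β 20-day replicate 3 or 4, the first 2 also without IL-1β 20-day replicate 1.

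Socs2, a STAT5-induced inhibitor of cytokine receptor signalling (chromosome 10, 95385362 to 95417180, minus strand), had the smallest p of all genes. Its 1-day levels were 33, 33.1 and 34.9 CPM with PBS and 46.4, 48.3 and 46.4 CPM with IL-1β. Its 20-day levels were 38.7, 36.3, 40.9 and 40.5 CPM with PBS and 17.8, 16.6, 14.7 and 11.9 CPM with IL-1β. IL-1β libraries were all above PBS at 1 day, where the effect of 0.48 ± 0.13 had an adjusted p of 0.0552, and all far below it at 20 days (-1.37 ± 0.12, adjusted p = 1.66e-05). The difference was -1.85 ± 0.18, or 3.6-fold (adjusted p = 0.000656), and by naming set the effect was 0.41 in 10k, 0.52 in E060216, -1.12 in E061316 and -1.61 in the untagged set. Of 15 SOCS and JAK-STAT feedback genes, Pim2, a serine/threonine kinase downstream of cytokine receptors, was the other with a called difference, beside 0.989% of all genes called downward. It was raised at 1 day, and its difference was -0.78 ± 0.16 (adjusted p = 0.0285). The call for Pim2 ended without PBS 1-day replicate 1, IL-1β 1-day replicates 1 and 2 and IL-1β 20-day replicates 1 and 4.

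Ccnd1, which encodes cyclin D1 (chromosome 7, 144929931 to 144939925, minus strand), measured 22, 23.8 and 26.2 CPM with PBS and 20, 21.9 and 15.6 CPM with IL-1β at 1 day. At 20 days PBS held 31.6, 23.5, 30.7 and 36 CPM and IL-1β 10.4, 7.37, 6.59 and 7.67 CPM. The 20-day IL-1β libraries were the lowest of the study. At 1 day the IL-1β libraries were also below PBS without overlap. That effect of -0.33 ± 0.20 was not called (adjusted p = 0.404). The difference was -1.59 ± 0.27 (adjusted p = 0.0137), and its call ended without PBS 1-day replicate 2 and IL-1β 1-day replicate 2. Its partner kinase gene Cdk6 was raised at both durations (0.66 ± 0.10 and 0.92 ± 0.08), with a difference of 0.26 ± 0.13 that was not called (adjusted p = 0.297).

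Unc5a, a netrin receptor, went from 19.1 to 27.2 CPM with PBS to 12.4 to 14.4 CPM with IL-1β at 20 days, and stood at 19.9 to 25.9 CPM with PBS and 27.7 to 36.9 CPM with IL-1β at 1 day, so the order of the groups was opposite. Its difference was -1.40 ± 0.22 (adjusted p = 0.0118), and its 1-day effect was not called (0.56 ± 0.17, adjusted p = 0.0778). Slfn2, a Schlafen family gene that maintains immune cell quiescence, overlapped at 1 day and fell at 20 days, from 69.7 to 89.5 to 26.3 to 37.1 CPM, with a difference of -1.05 ± 0.16 (adjusted p = 0.00925). Sox18, an endothelial SOX factor named after its values were seen, fell from 8.45 to 10.9 to 0.939 to 1.8 CPM at 20 days. At 1 day it was also lower without overlap, at 3.14 to 6.23 CPM with IL-1β and 6.33 to 8.81 CPM with PBS. That effect of -0.65 was not called. The difference of -2.11 ± 0.36 lost its call without PBS 1-day replicate 2 and IL-1β 1-day replicates 1 and 2.

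Genes of myeloid cells and multipotent progenitors were among those raised at 20 days with a called difference. Itgb2, the beta chain of the leukocyte integrins LFA-1 and Mac-1 (chromosome 10, 77530252 to 77565708, plus strand), measured 48.2, 62.7 and 56.4 CPM with PBS and 52.3, 55.2 and 52.6 CPM with IL-1β at 1 day. At 20 days PBS stood at 48.8, 61.2, 51.5 and 59.1 CPM and IL-1β at 111, 123, 114 and 127 CPM. The 4 IL-1β libraries at 20 days were at 111 CPM or more and all 10 others at 62.7 CPM or less, and the neutrophil-marked replicate 3 lay within the other 3. The effects were -0.06 ± 0.12 and 1.11 ± 0.10, with a difference of 1.17 ± 0.16 (adjusted p = 0.00553). Itgb7, the beta chain of gut-homing integrins, rose at 20 days, from 14.5 to 27.9 to 35.7 to 51 CPM, and had a 1-day effect of -0.41 ± 0.15 that was not called, for a difference of 1.39 ± 0.19 (adjusted p = 0.00596). These were the 2 of 24 adhesion and migration genes with a called difference, beside 1.15% of all genes called upward. In this list 13 rose and 3 fell at 20 days, beside 3.94% and 3.52% of all genes. At 1 day 2 rose and 0 fell, beside 2.52% and 1.83%.

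Tnfaip8l2, a negative regulator of innate and adaptive immune signalling (chromosome 3, 95139521 to 95142360, minus strand), measured 7.63, 11.4, 9.26 and 11.4 CPM with PBS and 21.4, 20, 22.9 and 25.7 CPM with IL-1β at 20 days. At 1 day it measured 9.47, 9.91 and 11.5 and 7.67, 6.6 and 8.55 CPM. At 1 day the IL-1β libraries were all below PBS, but the effect of -0.44 ± 0.17 was not called (adjusted p = 0.182). At 20 days the IL-1β libraries were all above PBS, and the difference was 1.62 ± 0.23 (adjusted p = 0.00596). BC035044, a protein-coding gene chosen after its values were seen (chromosome 6, 128849090 to 128891126, minus strand), rose from 1.19, 1.04, 1.45 and 1.44 CPM with PBS to 17.8, 14.6, 19.2 and 15.4 CPM with IL-1β at 20 days. It stood at 0.716 to 2.21 CPM with PBS and 1.28 to 3.65 CPM with IL-1β at 1 day. Its difference of 3.11 ± 0.34 on the log2 scale, 8.61-fold, was the largest of the 23 genes called by all 3 models (adjusted p = 0.00173). Pafah2, a phospholipase that removes oxidized lipids, and Gsn, the actin-severing protein gelsolin, both named after their values were seen, had differences of 0.87 ± 0.14 and 1.21 ± 0.20. The call for Pafah2 ended without IL-1β 1-day replicate 1, and that for Gsn without IL-1β 1-day replicate 1.

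Plac8, a gene of multipotent and myeloid progenitors, rose at 20 days from 30.8, 38.2, 56.5 and 55.7 CPM with PBS to 108, 112, 128 and 102 CPM with IL-1β. At 1 day it measured 54.2, 51.2 and 103 CPM with PBS and 58.6, 53.5 and 103 CPM with IL-1β, where the libraries of the 10k set were high in both groups. The difference was 1.30 ± 0.19 (adjusted p = 0.00799). Flt3, the receptor (Flk2) whose absence from the surface was a sorting criterion, rose at 20 days from 40.7, 57.4, 53 and 60.4 to 91.3, 78.7, 132 and 139 CPM and overlapped at 1 day, with a difference of 1.18 ± 0.23 (adjusted p = 0.0231) that lost its call without PBS 1-day replicate 2, IL-1β 1-day replicates 1 and 2 and IL-1β 20-day replicates 1, 3 and 4. Cd52, a surface glycoprotein gene of lymphoid and myeloid cells, had a difference of 1.57 ± 0.37 (adjusted p = 0.0461) that was kept only without PBS 20-day replicate 4 or IL-1β 20-day replicate 2 or 4. Of 10 multipotent progenitor genes, these 3 had a called difference, all upward, beside 1.15% of all genes. The median effects of the list were 0.14 at 1 day and 1.04 at 20 days. Without IL-1β 20-day replicate 3 the list had 1 call and a median difference of 0.81, against 0.84 with it. The number called was 1 without PBS 1-day replicate 2, IL-1β 1-day replicates 1 and 2 and IL-1β 20-day replicates 1 and 3.

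In the list of PU.1-dependent myeloid genes, 14 of 29 rose at 20 days and 1 at 1 day, beside 3.94% and 2.52% of all genes. At 20 days 0 fell and at 1 day 1 fell, beside 3.52% and 1.83%. A called difference upward was found for 3, beside 1.15%: Itgb2, Ncf1 and Flt3. The median effect was -0.01 at 1 day and 0.49 at 20 days, with a median difference of 0.54 that became 0.37, with 2 calls, without IL-1β 20-day replicate 3. The number called was 1 without PBS 1-day replicate 2 and IL-1β 1-day replicates 1 and 2. Ncf1, a subunit of the phagocyte NADPH oxidase, measured 9.35, 8.59 and 10.1 CPM with PBS and 4.58, 5.69 and 5.22 CPM with IL-1β at 1 day. At 20 days its groups overlapped, with PBS at 5.65, 7.95, 11.9 and 8.43 CPM and IL-1β at 10.6, 11, 24.6 and 12.5 CPM, the third of these being the neutrophil-marked library. Its difference was 1.62 ± 0.32 (adjusted p = 0.0282), and the call ended without PBS 1-day replicates 1 and 2 and IL-1β 1-day replicates 1, 2 and 3. The 1-day effect of -0.85 ± 0.25 was not called (adjusted p = 0.0678). The 20-day effect of 0.76 ± 0.21 (adjusted p = 0.0401), on which its place among the late genes rests, was called in 5 of the 14 fits without 1 library.

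Ms4a3, a gene of granulocyte and monocyte progenitors, rose at 20 days from 1.46, 2.84, 1.116 and 1.66 CPM with PBS to 15.8, 20.7, 41.1 and 20.2 CPM with IL-1β. At 1 day it stood at 1.83, 1.5 and 1.68 CPM with PBS and 3.78, 4.25 and 4.71 CPM with IL-1β. The IL-1β libraries were above PBS at both times without overlap, and replicate 3 at 20 days was the highest. The difference was 2.42 ± 0.50 (adjusted p = 0.0297), and its call ended without PBS 1-day replicates 1 and 2, IL-1β 1-day replicates 1 and 2 and PBS 20-day replicate 3. It was the 1 of 17 granulocyte and monocyte priming genes with a called difference, beside 1.15% of all genes called upward. The median difference of that list, 0.50, was -0.05 without IL-1β 20-day replicate 3, so its sign changed without that library.

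Spi1, which encodes PU.1 itself, was not called at either duration: its effects were -0.15 ± 0.10 and 0.10 ± 0.08, and its difference was 0.25 ± 0.13 (adjusted p = 0.314). It measured 97.9, 96.2, 116 and 134 CPM with PBS and 113, 112, 132 and 116 CPM with IL-1β at 20 days. Itgam, the alpha chain that pairs with Itgb2 in Mac-1, rose at 20 days (1.73 ± 0.32), but its difference of 1.84 ± 0.49 had an adjusted p of 0.0647. None of 24 myeloid and cytokine receptor genes had a called difference by edgeR, beside 2.14% of all genes (2 upward by DESeq2, and 5 at unadjusted p under 0.05). Il1r1, the signalling receptor for IL-1β, measured 12.7, 12.3 and 10.9 CPM with PBS and 35.2, 26.3 and 16 CPM with IL-1β at 1 day, and 8.96, 11.4, 4.77 and 2.36 and 33.5, 29.4, 25.2 and 26.6 CPM at 20 days. IL-1β libraries were above PBS without overlap at both times, and the effect was called at 20 days only (2.21 ± 0.26, adjusted p = 0.000198; at 1 day 1.06 ± 0.29, adjusted p = 0.0522). The difference of 1.15 ± 0.38 was not called (adjusted p = 0.125), and Il1rap, the co-receptor, overlapped at both durations.

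**Figure D4:**
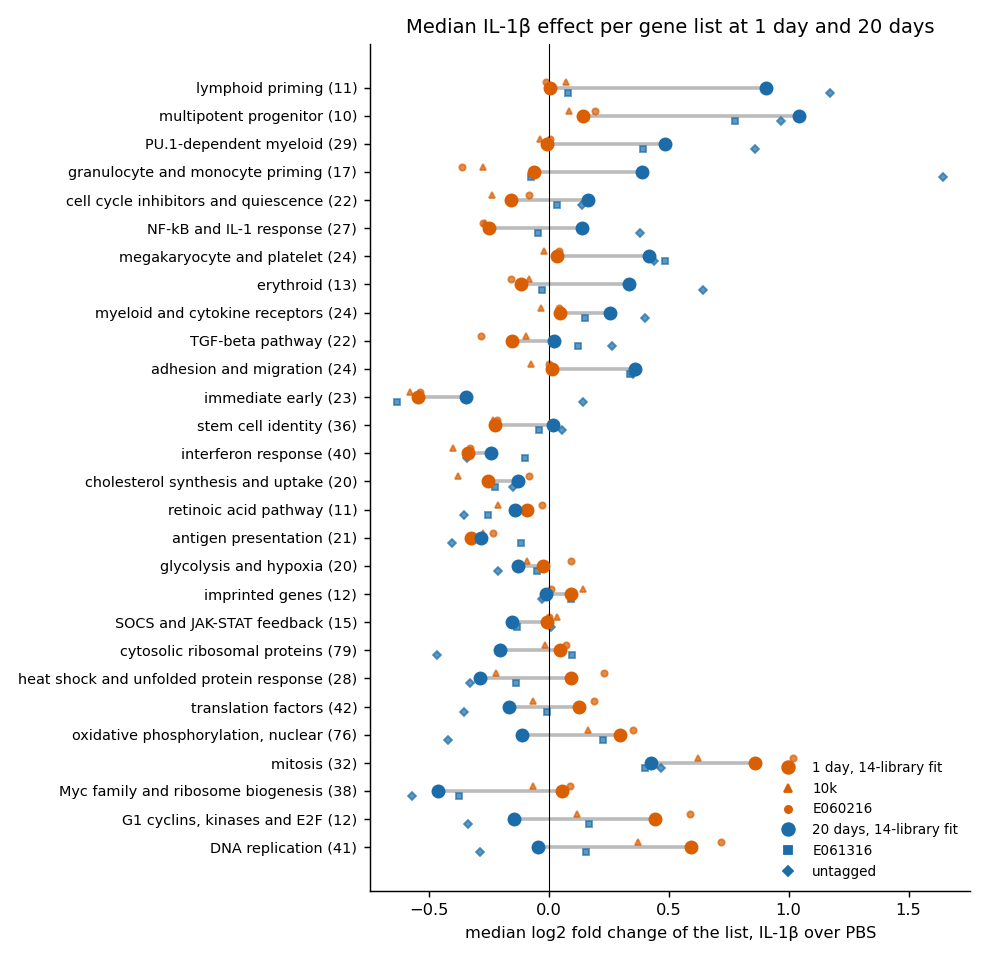
For each gene list the large points give the median log2 effect of IL-1β at 1 day and at 20 days in the 14-library fit, and small symbols give the medians within each naming set. The number of tested members is in brackets. DNA replication lies at 0.59 and -0.05, ribosome biogenesis at 0.06 and -0.46, and multipotent progenitor genes at 0.14 and 1.04.

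Other lineage lists had 2 calls each, all upward, beside 1.15% of all genes. In the megakaryocyte and platelet list, Gp9, a chain of the von Willebrand factor receptor, was lowered at 1 day and had a difference of 1.08 ± 0.18 (adjusted p = 0.0137), and Rab27b, a granule-transport GTPase, rose at 20 days with a difference of 0.58 ± 0.14 (adjusted p = 0.0429). Of the 24 members tested, 11 rose and 2 fell at 20 days, beside 3.94% and 3.52% of all genes. At 1 day 1 rose and 3 fell, beside 2.52% and 1.83%. Gp9 and Rab27b were the 2 called upward for the difference, beside 1.15%. Among 13 erythroid genes, Hbb-bt, an adult beta-globin gene with a near-identical copy, was raised at both times, from 8.67 to 12.9 to 25.6 to 37.5 CPM and from 7.24 to 22.1 to 92.5 to 131 CPM. The rise was not shared by other globin genes: Hbb-bs was lower with IL-1β at 20 days, and Hba-a1 and Hba-a2 did not rise. Aqp1, a water channel, was raised at 20 days only. The differences of Hbb-bt and Aqp1 were 1.5 ± 0.35 and 1.01 ± 0.20 (adjusted p = 0.0453 and 0.0275). The median difference of the erythroid list was 0.29, and -0.04 without IL-1β 20-day replicate 3. The calls for Rab27b and Hbb-bt ended without any of the 6 libraries at 1 day or IL-1β 20-day replicate 1, 3 or 4, that for Rab27b also without PBS 20-day replicate 1 and that for Hbb-bt also without PBS 20-day replicate 3. That for Aqp1 ended without any of the 4 E060216 libraries or IL-1β 20-day replicate 1 or 4, and that for Gp9 without IL-1β 1-day replicates 1 and 2.

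In 11 lymphoid priming genes, 2 had a called difference (Flt3 and Cd52, described above), both upward, beside 1.15% of all genes. The median difference of 0.88 became 0.34 without IL-1β 20-day replicate 3. Of 22 TGF-beta pathway genes, Tgfbr3, the betaglycan co-receptor, rose at 20 days only (0.89 ± 0.13), with a difference of 0.85 ± 0.19 (adjusted p = 0.0397). Smad7, the inhibitory Smad, had effects of -0.56 ± 0.17 and 0.47 ± 0.15 that were not called and a difference of 1.04 ± 0.23 that was (adjusted p = 0.0368). These 2 were the TGF-beta members called, both upward, beside 1.15% of all genes. Dhrs3, a retinaldehyde reductase, was the 1 of 11 retinoic acid pathway genes with a called difference, beside 1.15% of all genes called upward. It rose at 20 days from 6.82 to 10.47 to 17.9 to 31.7 CPM, with a difference of 1.43 ± 0.32 (adjusted p = 0.0384). Pecam1, an adhesion molecule of HSCs, leukocytes and endothelium, rose at 20 days from 41.3 to 78.4 to 123 to 136 CPM, with a difference of 1.00 ± 0.20 (adjusted p = 0.0295), and was named after its values were seen. Pecam1, Dhrs3 and Tgfbr3 lost the call without any of the 4 E060216 libraries, PBS 20-day replicate 3 or IL-1β 20-day replicate 1, 3 or 4, the last 2 genes also without PBS 20-day replicate 1. Smad7 lost it without PBS 1-day replicates 2 and 3, IL-1β 1-day replicates 1, 2 and 3, PBS 20-day replicate 3 and IL-1β 20-day replicates 3 and 4.

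Of 22 cell cycle inhibitor and quiescence genes, 2 had a called difference, both upward, beside 1.15% of all genes. Btg1, an antiproliferation factor, was lowered at 1 day, and Ccng2, an unconventional cyclin linked to arrest, rose at 20 days, with differences of 0.75 ± 0.18 and 0.70 ± 0.17 (adjusted p = 0.0454 and 0.0491). Btg1 was also much higher in the 10k libraries than in the other 1-day libraries, at 58.6, 67 and 141 CPM with PBS and 43.2, 49.5 and 78.4 CPM with IL-1β. Cdkn1c, the CDK inhibitor p57 of quiescent HSCs, was lowered at both durations (-0.54 ± 0.14 and -0.59 ± 0.12), and its difference was -0.04 ± 0.19 (adjusted p = 0.945). Its 1-day groups overlapped, and its 1-day call (adjusted p = 0.0491) was kept in 4 of the 14 fits without 1 library. Dlk1, an imprinted gene, was raised at 1 day, from 2.82 to 4.04 to 14.1 to 29.7 CPM, and its difference lay at the threshold (-1.83 ± 0.45, adjusted p = 0.0498) and was lost in each of the 14 fits without 1 library. The call for Btg1 was kept without PBS 20-day replicate 4 or IL-1β 20-day replicate 2 and ended without any other library, and that for Ccng2 was kept without those 2 or PBS 20-day replicate 2.

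Among the sustained responses, Tgfbi, a secreted adhesion protein (chromosome 13, 56609523 to 56639562, plus strand), measured 18.6, 24.2 and 19.4 CPM with PBS and 102, 84.5 and 75.7 CPM with IL-1β at 1 day. At 20 days it measured 22.4, 24.7, 20.1 and 18.4 and 116, 97.6, 81.2 and 101 CPM. The groups were far apart at both times, and the difference of 0.14 ± 0.18 was not called (adjusted p = 0.748). Vldlr, a lipoprotein receptor (chromosome 19, 27216484 to 27254231, plus strand), was raised by 1.73 ± 0.11 and 1.75 ± 0.10, and Gpc3, a heparan sulfate proteoglycan, by 1.47 ± 0.17 and 1.19 ± 0.15. Pcp4l1 rose by more at 20 days, from 44.2 to 47.9 CPM with PBS to 121 to 133 CPM with IL-1β. At 1 day it rose from 52.5 to 59.6 CPM to 90 to 98.3 CPM, and its difference was 0.71 ± 0.12 (adjusted p = 0.0140).

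Ninj1, an adhesion molecule with a part in plasma membrane rupture, fell by 0.63 ± 0.09 and 0.59 ± 0.08. H2-Aa, the alpha chain of MHC class II, fell by 1.30 ± 0.20 and 1.40 ± 0.17, whereas the class II modulator H2-Ob turned its direction. Chst2, a carbohydrate sulfotransferase named after its values were seen, fell from 11.9 to 15.8 to 5.1 to 8.07 CPM at 1 day and from 15.1 to 16.6 to 2.23 to 3.09 CPM at 20 days, by more at 20 days (difference -1.51 ± 0.27, adjusted p = 0.0202). Its call ended without PBS 1-day replicate 1 and IL-1β 1-day replicate 2, and that of Pcp4l1 without IL-1β 1-day replicate 1.

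Some interferon-inducible genes fell at both durations. Of 40 in the list, 12 fell at 1 day and 9 at 20 days, 7 of them at both, beside 1.83% of all genes at 1 day and 3.52% at 20 days, and none rose. The median effects were -0.34 and -0.24. Gbp4 and Gbp6, guanylate-binding GTPases with near-identical copies among which reads can be split, fell by 2.31 ± 0.32 and 2.22 ± 0.27, and by 1.78 ± 0.22 and 1.83 ± 0.19. Gbp2 was the 1 member with a called difference, beside 1.15% of all genes called upward. It fell at 1 day only (difference 0.56 ± 0.13, adjusted p = 0.0461), as did H2-T23, a nonclassical MHC class I gene of a multicopy family (difference 0.62 ± 0.13, adjusted p = 0.0334). Both calls were kept without PBS 20-day replicate 2 or 4 or IL-1β 20-day replicate 2, and ended without any other library.

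**Figure D5:**
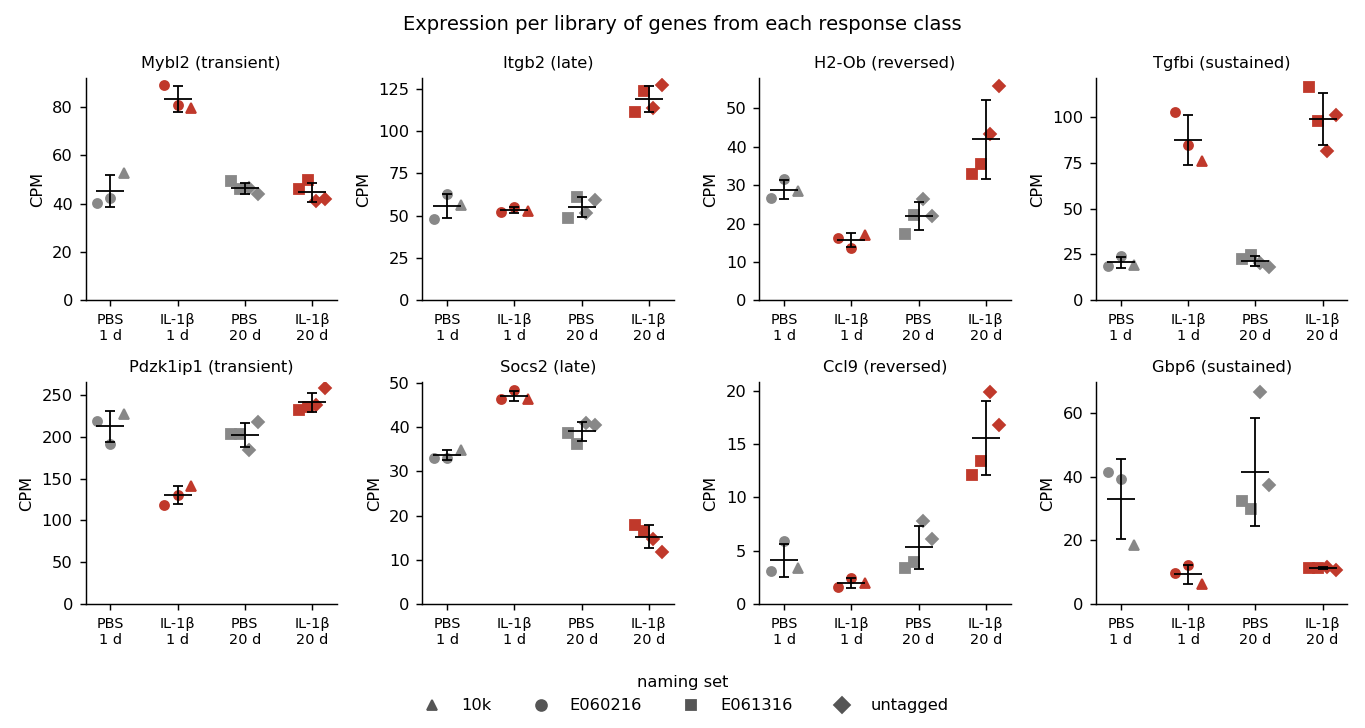
Points show each library's level in CPM (linear axis from 0) for example genes of each class, by treatment and duration, with symbols for the naming sets, horizontal lines for the group means and error bars for the SD. The IL-1β libraries of H2-Ob and Ccl9 lie below PBS at 1 day and above it at 20 days, those of Itgb2 overlap PBS at 1 day and lie above it at 20 days, and those of Socs2 lie above PBS at 1 day and below it at 20 days.

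Several lists had no called difference by edgeR, beside 2.14% of all genes, with DESeq2 calling a few members: 0 of 42 translation factor genes (8 by DESeq2), 0 of 79 cytosolic ribosomal protein genes (1), 0 of 76 nuclear oxidative phosphorylation genes (5), 0 of 23 immediate early genes (2), 0 of 20 cholesterol genes (0) and 0 of 8 mitochondrial transcripts (1). Their median differences were -0.32, -0.20, -0.38, 0.26, 0.08 and 0.08, beside 0.02 for all genes. Oxidative phosphorylation genes had a difference below 0 in 73 of 76. By naming set their median effect was 0.165 in 10k, 0.35 in E060216, 0.228 in E061316 and -0.42 in the untagged set. The sets of 20-day libraries thus lay on either side of 0. Without the E061316 libraries, which leaves only the untagged set at 20 days, 51 were called, in a fit that called 1433 genes in all. With 1 library left out, 0 to 3 were called.

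The genes just inside the threshold were Cdt1, Dlk1 and Dnaja1 (adjusted p = 0.04980 each), and those just outside were Ccl3, Ncl and Obsl1 (adjusted p = 0.05002 each). The smallest called difference was 0.445 on the log2 scale, and the median standard error of a difference was 0.229, so smaller changes of effect were mostly not detectable with these libraries.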

How the data were processed

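Per the labels' protocols, RNA from sorted mouse HSCs was amplified with a SMARTer kit and made into Nextera XT libraries, a method that does not keep the strand, so reads from overlapping or antisense genes cannot be told apart. The table holds raw read counts per gene as deposited by the authors, for 24833 genes and 14 libraries. Per the submitters' processing notes, the tools were Cuffdiff, Cufflinks 2.0.2, DESeq2 1.12.3, HTSeq 0.6.1, STAR 2.4.2a and Trimmomatic 0.32, on the build GRCm38.p4, with no role named for each. How the counting treated strand, and with which annotation, is not given in the sources used.

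From these counts, edgeR 4.0.16 in R 4.3.3 kept 15466 genes (filterByExpr, minimum count 10), scaled by TMM and fitted 1 quasi-likelihood model (robust, 8 residual degrees of freedom) with terms for the 4 naming sets and for IL-1β at 1 day and at 20 days. The difference of the last 2 terms was tested over all genes with two-sided F-tests and Benjamini-Hochberg adjustment at 0.05. Standard errors were taken from the F statistic, as |log2 fold change| / sqrt(F), and are approximate. Each library was 1 replicate: 18 pairs of replicates differed by 11.2 to 81.4 times the sampling variance (chi-square per degree of freedom). The members and the lists were chosen with earlier results of these data known. Members of a list can vary together, so a count of members is no count of independent results. Genes were named by rule: up to 5 of each class and direction by smallest p, kept in all 14 fits without 1 library where at least 2 genes were, up to 3 called genes per list, and Spi1, Il1r1, Il1rap, Myc, Mycn, Ccnd1, Cdk6, Cdkn1c, Flt3 and Itgam. Those marked as named after their values were seen, and 5 further lists given with the other observations, fall outside it, and a few genes that the rule names are not reported here. On simulated counts of this design the difference was called for 80%, 64% and 92% of late, transient and reversed 2-fold changes and for 4 of 14848 unchanged genes. Each of these shares rests on 25 genes above 5 CPM, with equal IL-1β effects in all naming sets of a duration. In the data the effects differed between sets (DNA replication median 0.16 in E061316 and -0.29 in the untagged set). The simulated shares therefore do not vouch for these data. Alternatives were TMM against other scalings, no filter, DESeq2 1.42.0, no naming set term, a replicate block, other thresholds, and leaving out each library or naming set. Gene positions are from GENCODE vM21 on GRCm38, and promoter windows from RefSeq (GRCm38.p6).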

Additional observations from a re-analysis of the deposited data

Results flagged for a closer look

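A difference between the effects at 20 days and at 1 day, by the test of that difference itself over all genes, was found for 69 of the named genes, with positive values where the 20-day effect was the higher one. Among genes lowered at 1 day and raised at 20 days, the log2 difference of effects was 1.79 for H2-Ob, 1.88 for Spic, 2.61 for Ccl9, 1.06 for Rec8, 1.79 for Il4, 1.04 for Tcn2, 1.42 for Themis2 and 1.37 for Rnase6. In the gene with the opposite order it was -0.75 for Gart. Where the rise was seen at 1 day alone, the difference was -0.95 for Mybl2, -1.09 for Tmem109, -1.17 for Bcl3, -0.62 for Pold1, -0.91 for Tk1, -0.78 for Pim2, -0.79 for Lig1, -0.87 for Mcm5, -0.62 for Pkm, -0.65 for Cdc20, -0.74 for Cdk1 and -1.83 for Dlk1. Where the fall was seen at 1 day alone, it was 0.96 for Pdzk1ip1, 0.92 for Apoe, 1.18 for Ebi3, 1.47 for Tcp11l2, 1.40 for Ctsf, 1.65 for Ccl4, 1.08 for Gp9, 1.25 for Traf1, 0.59 for Gata2, 0.62 for H2-T23, 0.75 for Btg1 and 0.56 for Gbp2. For genes raised at 20 days alone it was 3.11 for BC035044, 1.17 for Itgb2, 1.39 for Itgb7, 1.62 for Tnfaip8l2, 1.30 for Plac8, 0.87 for Pafah2, 1.21 for Gsn, 0.72 for Irak3 and 1.18 for Flt3. Further late genes had 1.01 for Aqp1, 1.62 for Ncf1, 1.00 for Pecam1, 2.42 for Ms4a3, 0.82 for Slamf1, 1.43 for Dhrs3, 0.85 for Tgfbr3, 0.58 for Rab27b, 1.57 for Cd52 and 0.70 for Ccng2. For genes lowered at 20 days alone it was -1.85 for Socs2, -1.05 for Slfn2, -1.40 for Unc5a, -1.59 for Ccnd1, -0.89 for Slc7a5, -2.11 for Sox18, -0.75 for Hspd1, -0.84 for Hsph1, -0.84 for Grwd1, -0.70 for Polr1a and -0.78 for Shmt2. Genes raised at both durations by unequal amounts had differences of 0.71 for Pcp4l1 and 1.5 for Hbb-bt. Genes lowered at both by unequal amounts had differences of -1.51 for Chst2 and -0.72 for Mycn. Without a call at either duration, the difference was 1.04 for Smad7 and -0.78 for Hsp90aa1.

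In 6 of 168 groups of 4 libraries (2 groups for each of 84 named genes), 1 library lay far from the other 3, and chance alone marks about 1 in 20 such groups. Ncf1 stood at 24.6 CPM in IL-1β 20-day replicate 3, the library with neutrophil markers, against 10.6 to 12.5 CPM in the other 3. In the same library Spi1 stood at 131.9 CPM against 112 to 116 CPM, and Dlk1 at 2.21 CPM against 5.71 to 6.11 CPM. Among PBS libraries at 20 days, Tcp11l2 was low in replicate 4 (109 CPM against 171 to 182 CPM), Rnase6 was low in replicate 1 (26.7 CPM against 38.2 to 39.0 CPM) and Btg1 was high in replicate 3 (99.2 CPM against 74.3 to 77.3 CPM).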

How the results depend on the processing

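No called difference of a named gene turned its sign under any alternative, whereas uncalled ones near 0 (Vldlr, Cenpa, Gbp4, Gbp6, Ninj1, H2-Aa and Cdkn1c) did under 1 to 8 of them, and the median differences of the granulocyte and monocyte list and of the erythroid list did without IL-1β 20-day replicate 3. The alternatives reuse all or most of the same libraries, so a kept sign is no independent evidence. Of the counts for the difference, the 2 durations and the 4 classes, DESeq2 size factors, upper-quartile factors and no filter moved none by over 1.5-fold, although upper-quartile factors gave 59.5% of called differences upward, against 53.8%. DESeq2 called 1182 differences, 1398 genes at 1 day and 1809 at 20 days, with 405 transient, 354 sustained, 486 late and 66 reversed. Without the naming set term the numbers were 23, 290, 525, 6, 76, 11 and 4 in the same order. Without E060216 they were 0, 2, 729, 0, 2, 0 and 0, a fit with 2 libraries left at 1 day. Without E061316 there were 1433 differences, 262 transient, 122 sustained, 652 late and 66 reversed. Without the untagged set there were 80 differences, 1519 genes at 1 day, 543 at 20 days, 34 transient and 29 late. Without 10k there were 358 differences, 39.7% of them upward, and 10 reversed. With no call of the difference required, 470 genes were transient and 952 late. At a threshold of 0.01 there were 21 differences, 11 transient, 61 sustained, 9 late and 1 reversed, and at 0.1 there were 269, 318, 376 and 58 in these classes.

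Leaving out 1 library gave 34 to 604 differences, 228 to 1244 genes at 1 day, 648 to 1156 at 20 days, 10 to 198 transient, 93 to 243 sustained, 19 to 294 late and 4 to 25 reversed. The fit with replicate numbers as a block within naming sets called 23 differences (87% upward), 383 genes at 1 day and 672 at 20 days, with 9 transient, 102 sustained, 9 late and 6 reversed, 14 of the 23 genes called by all 3 models, and 0 in the DNA replication and ribosome biogenesis lists. Whether the numbers pair the libraries cannot be told from these counts. Deviations of same-numbered libraries within a set correlated at -0.05, 0.14 and -0.04 in E060216, E061316 and the untagged set, over 9998 genes. Within a set the deviations of the replicates of a treatment mirror each other, so each set gives a single value. Of 14 libraries, 10 correlated best with their own number, and 14 with their own naming set. Depth, at 21654896 to 29441947 counts, limits genes near 3 counts, and the number of libraries limits the rest.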

Other observations

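Further gene groups of biosynthesis, put together after values of single members had been seen and so given as description, lay on the lower side of the difference. Of 15 genes of serine, one-carbon and purine synthesis, 7 had a called difference, all downward (Phgdh, Psat1, Shmt1, Shmt2, Mthfd1, Gart and Asns), beside 0.989% of all genes. Their median effect was 0.32 at 1 day and -0.38 at 20 days, and 7 of the 15 fell at 20 days. Phgdh and Psat1 catalyse the first steps of serine synthesis, and their differences were -0.63 ± 0.14 and -0.78 ± 0.18. Asns, the asparagine synthetase, had a difference of -0.77 ± 0.18. Of 20 aminoacyl-tRNA synthetase genes, Aars, Cars and Mars had a called difference downward, beside 0.989% of all genes, and the median difference was -0.36. With 1 library left out, the number called in the serine list was 0 without IL-1β 1-day replicate 1, 1 without PBS 1-day replicate 2 and IL-1β 1-day replicate 2, 2 without PBS 1-day replicate 1, PBS 20-day replicate 3 and IL-1β 20-day replicates 3 and 4, 3 without IL-1β 20-day replicate 1 and 4 without PBS 20-day replicate 2, and in the synthetase list 0 without PBS 1-day replicates 1 and 2 and IL-1β 1-day replicates 1 and 2, 1 without PBS 20-day replicate 3 and IL-1β 20-day replicates 3 and 4 and 6 without IL-1β 20-day replicate 2.

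Of 15 genes of the cytosolic chaperonin and HSP90 system, Dnaja1, Hsp90aa1, Hsp90ab1 and Stip1 had a called difference downward, beside 0.989% of all genes. The difference was below 0 in 15 of 15 (median -0.52, beside 0.02 over all genes). Of 27 nuclear pore genes, Aaas, Nup133, Nup85 and Nup93 had a called difference downward, beside 0.989% of all genes, all being raised at 1 day. The median effects were 0.37 at 1 day and -0.05 at 20 days. Of 14 tubulin genes, Tuba1b, Tubb4b, Tubb5 and Tubg1 had a called difference downward, beside 0.989% of all genes. The median difference was -0.45, and tubulin genes share near-identical copies. With 1 library left out, the number called was 0 without PBS 1-day replicates 1 and 2, IL-1β 1-day replicates 1 and 2, PBS 20-day replicate 3 and IL-1β 20-day replicates 1 and 4, 1 without IL-1β 20-day replicate 3, 2 without PBS 20-day replicates 1 and 2, 7 without PBS 20-day replicate 4 and 9 without IL-1β 20-day replicate 2 in the chaperonin list. In the nuclear pore list it was 0 without PBS 1-day replicates 1 and 2 and IL-1β 1-day replicates 1 and 2 and 2 without PBS 20-day replicate 3 and IL-1β 20-day replicates 1, 3 and 4, and in the tubulin list 0 without PBS 1-day replicates 1 and 2 and IL-1β 1-day replicates 1 and 2, 1 without PBS 20-day replicate 3 and IL-1β 20-day replicates 3 and 4 and 2 without IL-1β 20-day replicate 1. In the serine, synthetase, chaperonin, nuclear pore and tubulin lists DESeq2 called 11, 10, 13, 7 and 7 genes, and edgeR without the naming set term 0 in each. Of 23 heat shock and unfolded protein response genes with a promoter window, 21 (91.3%) held the letters CCAAT on either strand. The share was 41.1% among all genes with a window, tested or not. This list and motif were picked from several after the shares were seen.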
